A study of Carassius auratus with 6 samples.

Results

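The agouti-signaling protein gene copies are the rows of the deposited gene table whose product name begins with agouti-signaling protein or agouti-related protein. The rule found 5 of 83088 gene rows, and 3 of these 5 copies had counts in skin. The remaining 2 were listed at 0 in every library. The copies were compared between golden skin (3 mRNA libraries) and greenish grey skin (3 libraries) of female golden-back crucian carp (Carassius auratus), a colour mutant that carries both skin colours on its body. No treatment is named in the labels, and both skins share strain and sex. The study describes the golden skin of this fish as lying along the back. The site of the greenish grey skin is not given in the sources used here, so skin colour and body site cannot be told apart. The study took both skins from the same fish for its small RNA libraries, and which fish gave the mRNA libraries is not given.

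Agouti-signaling protein is a secreted antagonist of melanocortin receptors. It competes with melanocyte-stimulating hormone at the melanocortin 1 receptor of pigment cells, and where it binds, cAMP falls and less melanin is made. Agouti-related protein is its relative, known in the brain for its action at melanocortin receptors that control feeding. In goldfish and zebrafish, agouti-signaling protein is known for its higher expression in pale belly skin than in the dark back, which gives the countershading of these fish. The goldfish genome is duplicated, so most of its genes have a near-identical partner, and how reads were divided between such copies is uncertain.

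Total counts were 52563940 to 67595616 in golden and 51493103 to 65524873 in greenish grey libraries. The tissue was mixed in both colours: genes of a skeletal muscle list took 4.60 to 16.3% of the counts in golden and 2.14 to 9.84% in greenish grey libraries, and epidermis markers took 0.442 to 2.78% in golden and 0.873 to 2.40% in greenish grey libraries. Libraries of the 2 colours that carry the same number departed from their group means alike, though weakly for number 2 (r = 0.258). Each golden library is therefore also set against the greenish grey library of its number, and what a number stands for is not in the labels.

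The 3 copies with counts did not move together. LOC113050259 had almost all of its counts in golden skin, where it averaged 2.78 ± 1.35 FPKM, against 0.0160 ± 0.0277 FPKM in greenish grey skin (SD, n = 3 each). LOC113046021 showed the opposite order, with 0.285 ± 0.361 FPKM in golden and 3.48 ± 1.23 FPKM in greenish grey skin (SD, n = 3 each). LOC113038505 also had its lower mean in golden skin, at 1.01 ± 0.436 FPKM against 5.06 ± 5.21 FPKM in greenish grey skin (SD, n = 3 each), but 1 library made most of that difference. FPKM corrects the fragment count for the length of the gene and the size of the library, and these values are levels.

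**Figure D1:**
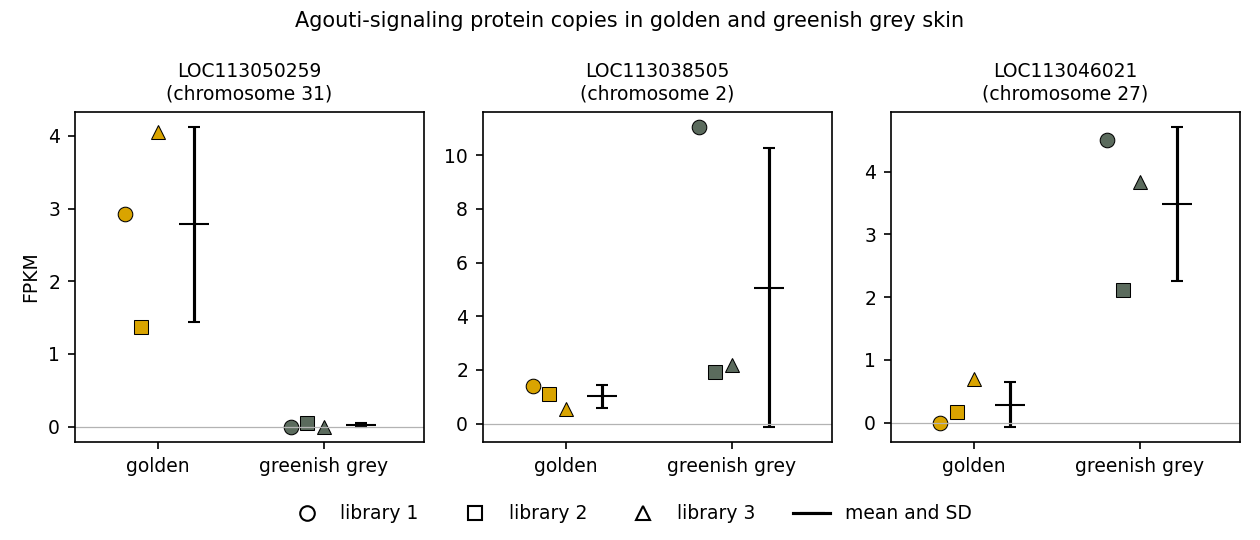
The level in FPKM (vertical axes, on a scale of their own in each panel) of each agouti copy in golden and greenish grey libraries, with 1 symbol per library number and bars for the mean and SD (n = 3). LOC113050259 reached 1.37 to 4.05 FPKM in golden and at most 0.0479 FPKM in greenish grey libraries, LOC113046021 lay at 0.692 FPKM or below in golden and at 2.11 FPKM or above in greenish grey libraries, and greenish grey library 1 stands apart for LOC113038505 at 11.1 FPKM.

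LOC113050259 lies on chromosome 31 (4330826 to 4334765, plus strand, assembly ASM336829v1) and is annotated as a protein-coding gene of the melanogenesis pathway. It had 376, 191 and 672 counts in golden libraries 1 to 3, against 0, 8 and 0 counts in greenish grey libraries 1 to 3. Every golden library was therefore far above every greenish grey one, and the 8 counts of greenish grey library 2 were all that this colour gave. At the depth of greenish grey libraries 1 and 3, a count of 0 allows up to 3 counts, or 0.0583 and 0.0458 CPM (the usual library-scaled count), which covers counting error only. Summed over libraries, 1239 golden counts stood against 8 greenish grey counts, a ratio of 158 after scaling by library totals. Within the numbered pairs, golden skin was at least 122.8-fold higher in pair 1, 26.8-fold higher in pair 2 and at least 217-fold higher in pair 3, where a 0 was set to 3 counts. The edgeR quasi-likelihood fit over all 26421 tested genes gave a log2 fold change of 7.41 ± 1.30 (SE), with an unadjusted p of 0.000944 and a Benjamini-Hochberg adjusted p of 0.924. By unadjusted p it ranked 27 among the tested genes. DESeq2 gave an adjusted p of 5.93e-08 for a log2 fold change of 7.49, and edgeR with the replicate number as a block gave an adjusted p of 0.199 for 7.36.

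LOC113046021 lies on chromosome 27 (25381313 to 25384042, plus strand). Although its product is named agouti-signaling protein-like, the table assigns it to the orthologue group and pathway of agouti-related protein. It had 0, 11 and 56 counts in golden libraries 1 to 3, against 275, 159 and 298 counts in greenish grey libraries 1 to 3. The highest golden library stayed below the lowest greenish grey one, and golden library 1 had no count at all. Golden skin was at least 93.6-fold lower in pair 1, 12.9-fold lower in pair 2 and 5.49-fold lower in pair 3. The log2 fold change was -3.67 ± 1.22 (SE; edgeR unadjusted p = 0.0214, adjusted p = 0.9998), and -4.02 with the replicate block (adjusted p = 0.306). DESeq2 gave an adjusted p of 0.110. Without golden library 2 the unadjusted edgeR p was 0.0677, with a log2 fold change of -3.43.

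LOC113038505 lies on chromosome 2 (25936999 to 25941751, plus strand) and carries the same annotation as the copy on chromosome 27. It had 138, 118 and 69 counts in golden libraries 1 to 3, against 1077, 232 and 270 counts in greenish grey libraries 1 to 3. Greenish grey library 1 was high and the other 5 libraries lay closer together. The raw counts and FPKM of the groups did not overlap, but counts scaled by edgeR did, with golden library 1 above greenish grey library 2. Golden skin was lower in every pair, by 7.97-fold in pair 1, 1.75-fold in pair 2 and 4.04-fold in pair 3. The log2 fold change was -2.20 ± 0.93 (SE), with an edgeR unadjusted p of 0.0517. Without greenish grey library 1 it was -0.71 (edgeR unadjusted p = 0.304), and without both libraries numbered 1 it was -1.21 (edgeR unadjusted p = 0.0973). With the replicate block it was -1.80 (edgeR unadjusted p = 0.00772, adjusted p = 0.288), and with the muscle share of each library as a covariate -2.97 (edgeR unadjusted p = 0.00113, adjusted p = 0.267).

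Of the 3 copies, 0 passed an adjusted p under 0.05 in edgeR, as did 0% of the 26421 tested genes, of which 1163 had an unadjusted p under 0.05. With DESeq2, 1 copy (LOC113050259) passed, against 0.776% of the tested genes. At the threshold used from here on, a fold change over 2 together with an unadjusted p under 0.05 (the study took such a threshold for messenger RNA), 1 copy was higher in golden skin, against 1.26% of tested genes, and 1 copy (LOC113046021) was lower, against 1.51%. With the replicate block, both LOC113046021 and LOC113038505 were lower past this threshold, against 2.63% of tested genes. On scaled counts, 1 copy was higher in golden skin without overlap between the groups, against 4.99% of tested genes, and 1 was lower without overlap, against 5.08%. A gene entered the test when its mean over all libraries reached 1 FPKM. LOC113050259 reached that mean only through golden skin and LOC113046021 only through greenish grey skin, so these counts describe the copies and carry no further weight.

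**Figure D2:**
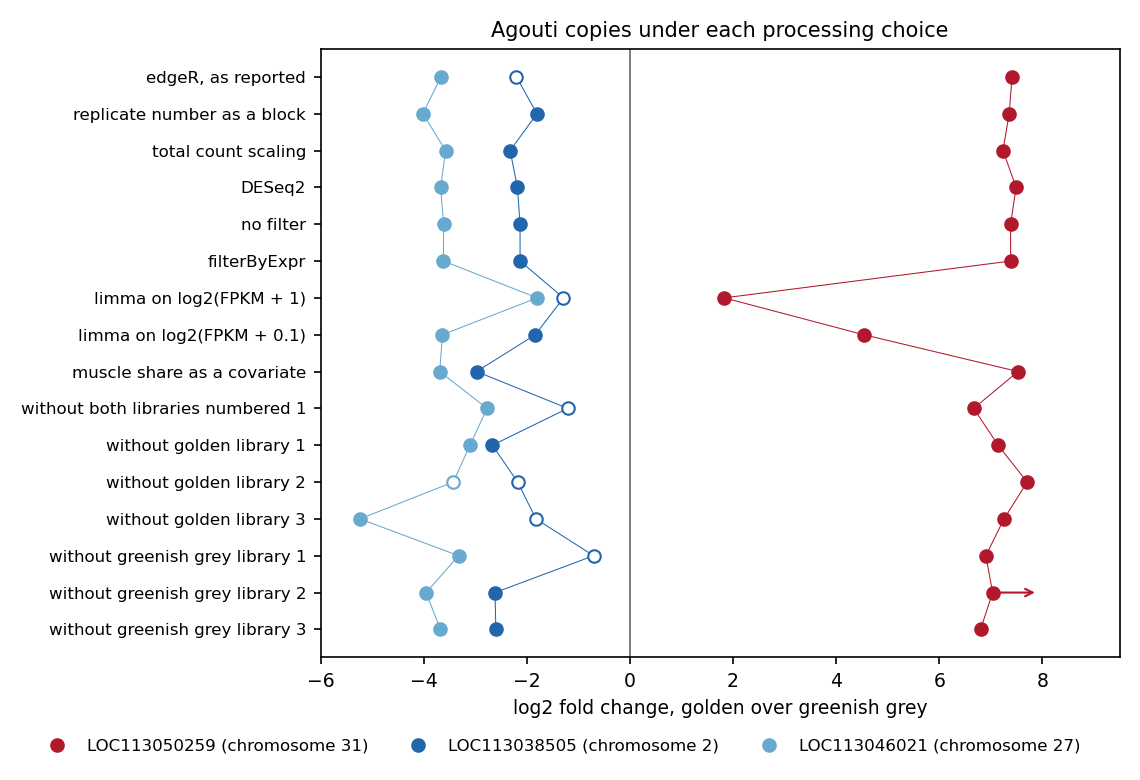
The log2 fold change of each copy, golden over greenish grey, in the edgeR fit and under each of 15 other processing choices (vertical axis), filled where past the threshold. As drawn, LOC113050259 lay between 1.83 and 7.71, LOC113046021 between -5.24 and -1.80 and LOC113038505 between -2.97 and -0.71, and no copy changed sign. Without greenish grey library 2, LOC113050259 is drawn at a lower bound of 7.03 (arrow) in place of the fitted 11.7.

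The share of each copy in the agouti messenger was then compared between the colours. LOC113050259 made up 67.8, 51.9 and 76.8% of the summed FPKM of the 3 copies in golden libraries 1 to 3, against 0, 1.17 and 0% in greenish grey libraries 1 to 3. LOC113046021 made up 0, 6.21 and 13.1% in golden libraries, against 28.9, 51.6 and 63.8% in greenish grey libraries. Neither of these sets of shares overlapped between the colours. LOC113038505 made up 32.2, 41.9 and 10.1% in golden libraries and 71.1, 47.3 and 36.2% in greenish grey libraries, with golden library 2 above greenish grey library 3. The mean share of LOC113050259 was 65.1 percentage points higher in golden skin, and the difference for LOC113046021 was -41.7 points. Both gave an exact permutation p of 0.1, the smallest that 3 libraries against 3 can reach, and 0.15 after adjustment over the 3 copies (two-sided). This test did not use the library numbers. The 3 shares of a library make up a whole, so the differences of the copies are not independent results. For LOC113038505 the difference was -23.4 points (exact permutation p = 0.2), with the lower share in golden skin in each numbered pair. Taken over summed counts in place of FPKM, its share was 26.8, 36.9 and 8.66% in golden libraries, against 79.7, 58.1 and 47.5% in greenish grey libraries. On that scale the groups did not overlap, and the difference was -37.7 points (exact permutation p = 0.1).

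**Figure D3:**
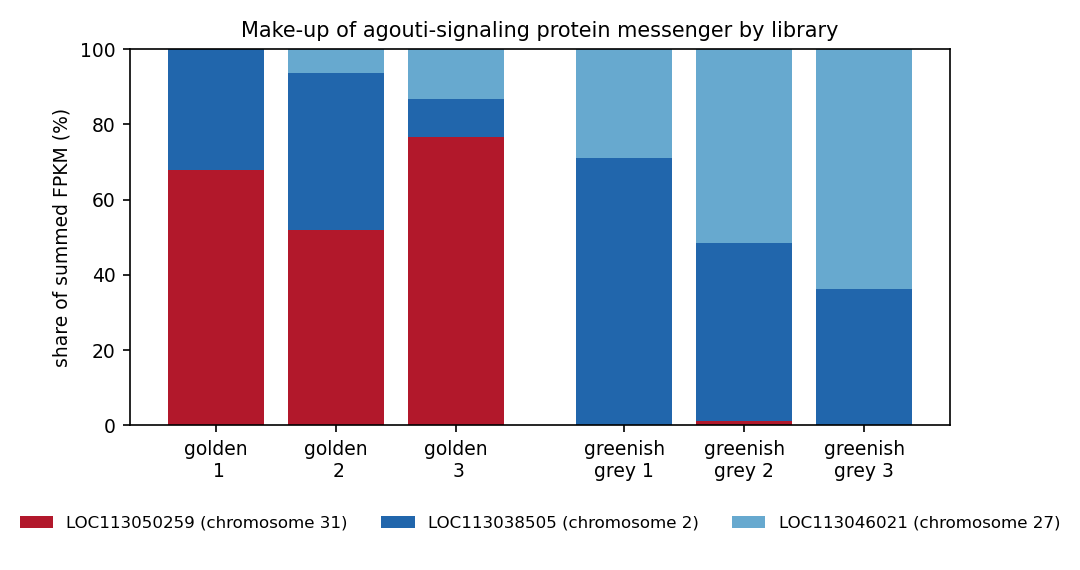
The share of each copy in the summed FPKM of the 3 copies (vertical axis, percent) in golden libraries 1 to 3 and greenish grey libraries 1 to 3. LOC113050259 was the largest part in each golden library, at 51.9 to 76.8%, and at most 1.17% in a greenish grey library.

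The summed level of the 3 copies was 4.32, 2.64 and 5.28 FPKM in golden libraries 1 to 3, against 15.6, 4.10 and 6.02 FPKM in greenish grey libraries 1 to 3. The groups overlapped, and the means of 4.08 ± 1.34 FPKM in golden and 8.56 ± 6.15 FPKM in greenish grey skin (SD, n = 3 each) gave an exact permutation p of 0.3. In each numbered pair the golden library had the lower sum. Within the pair on chromosomes 2 and 27, LOC113038505 supplied 100, 87.1 and 43.6% of the FPKM in golden libraries 1 to 3, against 71.1, 47.8 and 36.2% in greenish grey libraries 1 to 3. It supplied the larger share in golden skin in each numbered pair, while the groups overlapped (exact permutation p = 0.3).

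The 2 copies without counts were LOC113105090 on chromosome 6 (27277303 to 27279477, minus strand) and LOC113105300 on chromosome 7 (14555734 to 14557456, minus strand). LOC113105090 is annotated as a long non-coding RNA whose product name is that of a partial agouti-signaling protein, and LOC113105300 as agouti-related protein-like. Both had 0 counts in golden and in greenish grey libraries, which allows up to 0.0444 to 0.0583 CPM in a library. LOC113105090 overlaps another row at 0 counts on the opposite strand, with the symbol asip and a product named as a hypothetical protein, at 27277235 to 27280364. That row was not found by the rule, and how reads in the overlap were counted is not given in the sources used here.

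Gene order grouped the copies into pairs. Among the products named within 20 rows on each side, LOC113038505 and LOC113046021 had 17 in common, 56.7% of the 30 products beside LOC113038505 and 62.96% of the 27 beside LOC113046021. LOC113050259 and LOC113105090, the copy without counts, had 21 in common, 65.6% of the products beside each. Every other pair of copies had 0 in common, including all pairs with LOC113105300. Both members of the pair on chromosomes 2 and 27 had counts and the lower mean in golden skin. On chromosomes 31 and 6, LOC113050259 had its counts in golden skin and LOC113105090 had none. LOC113105090 is a non-coding row on the minus strand, whereas LOC113050259 and the row asip, which overlaps LOC113105090, are on the plus strand. The row asip also had 0 counts, and which of the overlapping rows is the counterpart of LOC113050259 was not tested.

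The copies were also compared with their neighbours on the chromosome. Past the threshold, 1.26% of all tested genes were higher and 1.51% lower in golden skin. Of the 16 rows nearest to LOC113050259, 14 were tested, and 1 was past the threshold. This was LOC113050258 (4315883 to 4335081, minus strand), a gene for a subunit of translation initiation factor eIF2, and LOC113050259 lies wholly inside it on the opposite strand. It had 1010, 1226 and 1778 counts in golden libraries 1 to 3, against 731, 554 and 594 counts in greenish grey libraries 1 to 3, without overlap. Its log2 fold change was 1.17 ± 0.34 (SE; edgeR unadjusted p = 0.0123). Its counterpart on chromosome 6, LOC113105088, had a log2 fold change of -0.05 ± 0.31 (SE). Without a stated use of strand, reads of LOC113050259 and LOC113050258 in the overlap cannot be told apart. In greenish grey libraries LOC113050258 had 554 to 731 counts while LOC113050259 had 0 to 8.

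None of the tested neighbours of the other copies with counts was past the threshold. This was 0 of 8 beside LOC113038505 and 0 of 6 beside LOC113046021. These are too few rows to set apart from the shares over all tested genes (1.26% higher and 1.51% lower). The log2 fold changes of these neighbours lay between -0.52 and 0.85 beside LOC113038505 and between -0.13 and 0.67 beside LOC113046021. Krueppel-like factor 9, a zinc finger transcription factor gene that neighbours both copies, had 0.36 beside LOC113038505 and 0.11 beside LOC113046021.

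**Figure D4:**
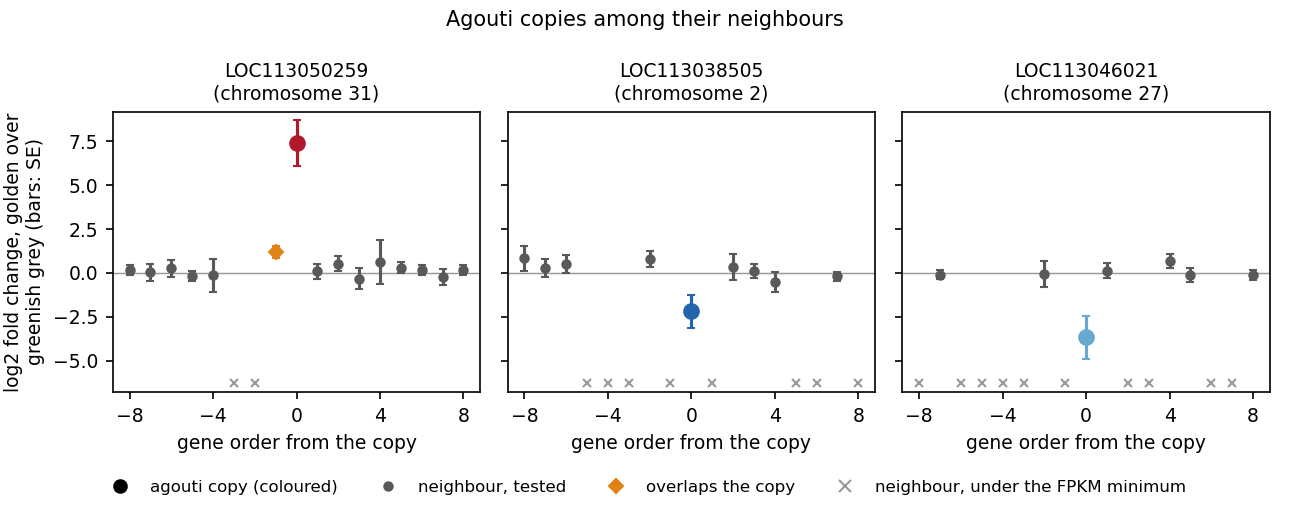
The log2 fold change, golden over greenish grey, with its SE, of each copy and of the 8 rows on either side in gene order (horizontal axis), with crosses for rows under the FPKM minimum. The copies lie at 7.41, -2.20 and -3.67, and the overlapping LOC113050258 lies at 1.17.

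The melanocortin receptors, on which agouti proteins act, had few counts. The single melanocortin 1 receptor row, LOC113091614, the receptor through which melanocyte-stimulating hormone raises cAMP in pigment cells, had 31, 20 and 58 counts in golden libraries 1 to 3, against 225, 116 and 110 counts in greenish grey libraries 1 to 3. Every golden library was below every greenish grey one. It did not reach the FPKM minimum, and in the edgeR fit without a filter its log2 fold change was -2.02 ± 0.63 (SE; unadjusted p = 0.0129, adjusted p = 0.942). Without greenish grey library 1 the unadjusted edgeR p was 0.0809, at -1.35.

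The melanocortin 5 receptor, which in mammals is known from skin glands, had its highest row in LOC113119175. This row had 0, 29 and 18 counts in golden libraries 1 to 3, against 55, 138 and 145 counts in greenish grey libraries 1 to 3. The groups did not overlap, and the log2 fold change in the fit without a filter was -2.69 (edgeR unadjusted p = 0.0491). Leaving out golden library 3 or any greenish grey library raised that p to between 0.0543 and 0.111. Another melanocortin 5 receptor row, LOC113068290, had 11, 57 and 34 counts in golden and 27, 209 and 76 counts in greenish grey libraries. Its groups overlapped, and its log2 fold change in the same fit was -1.38 (edgeR unadjusted p = 0.144). The highest melanocortin 3 receptor row, LOC113107554, had 4, 30 and 2 counts in golden and 10, 24 and 32 counts in greenish grey libraries. The rows of the melanocortin 2 receptor, the receptor of adrenocorticotropic hormone, and of the melanocortin 4 receptor, known from the brain, were listed at 0 in golden and in greenish grey libraries. The hormone precursor pro-opiomelanocortin had at most 10 counts in a golden and 18 counts in a greenish grey library in any of its rows.

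None of the cofactors of agouti differed past the threshold. Attractin is a membrane protein that mouse agouti needs for its effect, and its highest row with the plain name, LOC113112894, had a log2 fold change of 0.06 ± 0.26 (SE). The highest attractin-like protein 1 row, LOC113072612, had 0.40 ± 0.49 (SE). The ubiquitin ligase MGRN1, which acts in the same mouse pathway, had -0.13 ± 0.28 (SE) in LOC113111745. The receptor accessory protein row LOC113115966 had 0.24 ± 0.44 (SE), and corin, a protease that limits agouti action in mouse hair, had 0.07 ± 0.92 (SE). None of these 5 rows had an edgeR unadjusted p under 0.05.

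Over the whole melanocortin pathway list, from hormone and receptors to cAMP signalling and the transcription factor MITF, 42 of 129 rows were tested. Of these 27 had a higher and 15 a lower value in golden skin, and the median log2 fold change was 0.07, against 0.03 over all tested genes. Past the threshold, 0 were higher and 1 was lower (2.38% of 42, against 1.51% of all tested genes). This was LOC113050985, a regulatory subunit of the cAMP-dependent protein kinase, with 52, 120 and 144 counts in golden and 376, 340 and 478 counts in greenish grey libraries. Its log2 fold change was -1.85 ± 0.35 (SE; edgeR unadjusted p = 0.00152, adjusted p = 0.9998).

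In the fit without a filter, 105 of the 129 rows had counts, of which 8 were lower in golden skin past the threshold (7.62%, against 1.70% of all genes in that fit) and 0 were higher (against 1.49%). Beside the 2 receptors and LOC113050985 they were 2 adenylate cyclase 5 rows, 2 rows of the transcription factor MITF, the regulator of melanophore fate and melanin genes, and a second kinase regulatory subunit. Without greenish grey library 1, 3 of the 105 rows (2.86%) were lower past the threshold. Without any 1 of the other libraries, 7 to 11 (6.67 to 10.5%) were lower, and 1 was higher without greenish grey library 3. The shares over all genes in these fits are not given, so the counts are not compared. With the filter, leaving out greenish grey library 1 took the lower genes over all tested genes from 399 to 295. The adenylate cyclase 5 row LOC113053059 had 83, 123 and 178 counts in golden and 571, 352 and 439 counts in greenish grey libraries (log2 fold change -1.75, edgeR unadjusted p = 0.00262). The MITF row LOC113096094 had 12, 36 and 51 counts in golden and 114, 116 and 223 counts in greenish grey libraries (log2 fold change -2.09, edgeR unadjusted p = 0.00617). The one tested MITF row, LOC113040922, had a log2 fold change of 0.21 ± 1.03 (SE).

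**Figure D5:**
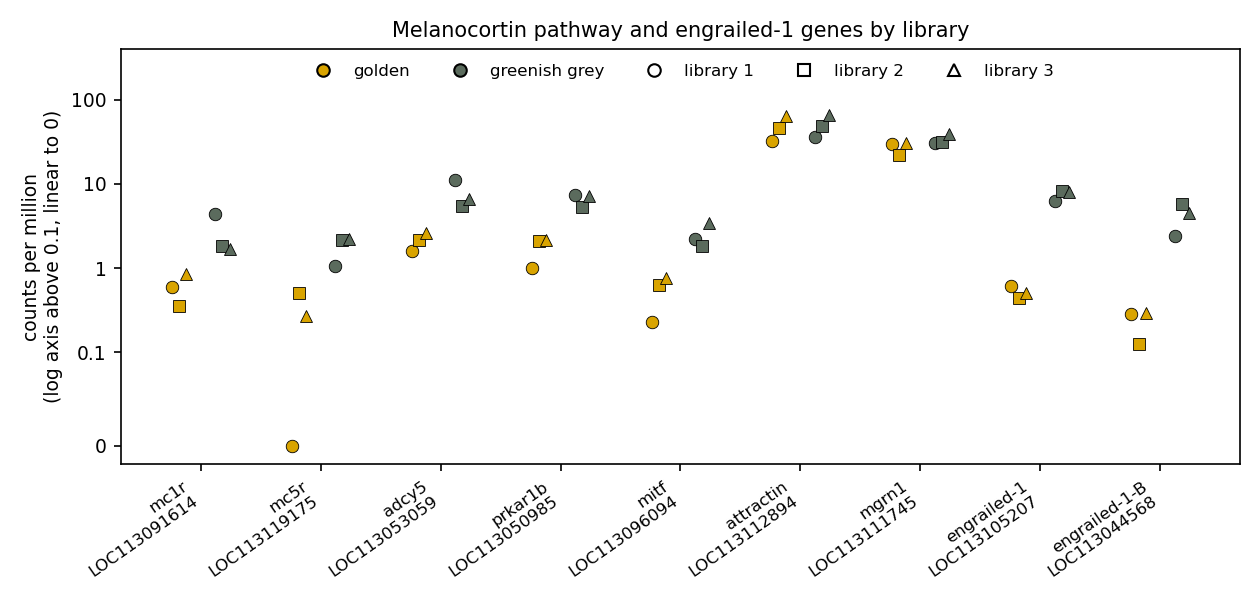
The CPM (vertical axis, logarithmic above 0.1 and linear to 0) of melanocortin pathway genes and engrailed-1 genes, with golden libraries on the left and greenish grey libraries on the right of each gene and 1 symbol per library number. Of these picked rows, the receptor, adcy5, prkar1b, mitf and engrailed-1 rows do not overlap between the colours. Over all tested genes, 4.99% were higher and 5.08% lower in golden skin without overlap, on counts scaled by edgeR rather than by library totals. The mgrn1 row, at a log2 fold change of only -0.13, does not overlap in CPM, but its raw counts do (2066 in golden library 3, 1574 in greenish grey library 1). The attractin row overlaps.

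Marker lists of pigment cells, of other tissue and, in part, of body position also differed between the colours. The melanophore list, genes that black pigment cells use to make and move melanin, took 0.00384 to 0.00570% of the counts in golden and 0.0132 to 0.0315% in greenish grey libraries. All 15 tested melanophore genes had a lower value in golden skin, and 13 were past the threshold, against 1.51% of all tested genes. The log2 fold changes of these 13 ran from -3.45 to -1.27, with a list median of -2.61, against 0.03 over all tested genes. They included pmel (LOC113054907, -3.45, a fibril protein of the melanosome) and tyrp1 (LOC113044200, -3.11, an enzyme of melanin synthesis). A gene can reach the FPKM minimum through the colour where it is high, so counts over tested genes only describe the marker lists. In the fit without a filter, 18 of 35 melanophore genes were lower past the threshold, against 1.70% of all genes in that fit. In whole skin, fewer cells of a type and less RNA per cell cannot be told apart, and the part of melanophore content in the values of the copies and receptors was not tested. Of the iridophore list, genes of reflecting pigment cells, 12 of 13 tested genes had a lower value in golden skin (median -1.003). Of these, 7 were past the threshold, against 1.51% of all tested genes, and 5 with the replicate block, against 2.63%. Without a filter, 8 of 24 iridophore genes were lower past the threshold, against 1.70% of all genes in that fit. The iridophore list took 0.00500 to 0.0216% of the counts in golden and 0.0191 to 0.0297% in greenish grey libraries, with overlap. Of the xanthophore list, genes of yellow pigment cells, 12 of 13 had a lower value and 0 were past the threshold (median -0.70), with 1 at an edgeR unadjusted p under 0.05. With the replicate block 6 had such a p, as did 3428 of 26421 tested genes. The xanthophore list took 0.00634 to 0.0126% of the counts in golden and 0.0138 to 0.0176% in greenish grey libraries, without overlap. As a share of FPKM the groups overlapped, with 0.00897% in golden library 3 and 0.00714% in greenish grey library 2 (exact permutation p = 0.2). The endothelium list had a lower value in 19 of 19 tested genes, 1 of them past the threshold (median -0.42). The endothelium list took 0.0265 to 0.0321% of the counts in golden and 0.0405 to 0.0439% in greenish grey libraries, without overlap. Past the threshold, 0 xanthophore and 1 endothelium genes are too few to set apart from the 1.51% of all tested genes. The dermal fibroblast list also had a lower value in golden skin in 27 of 27 tested genes (median -0.96), and 69 of 75 tested muscle genes had a higher one (median 1.21). Past the threshold, 5 dermal fibroblast genes were lower, against 1.51% of all tested genes. The dermal fibroblast list took 0.135 to 0.326% of the counts in golden and 0.210 to 0.885% in greenish grey libraries, with overlap. Its 0.885% was in greenish grey library 1, where LOC113038505 was high, and that library also had the highest melanophore share (0.0315%). Of the muscle genes, 7 were higher past the threshold, against 1.26%, and 1 was lower, against 1.51%. The part of these tissues in the values of the copies was not tested either, beyond the fit with the muscle share, where LOC113050259 had 7.53 and LOC113046021 -3.69.

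The dorsoventral position list was drawn up from the names zic1, zic4, engrailed-1, tbx15 and tbx18, and values of single zic rows are not given here. Of 9 tested genes of this list, 6 had a higher and 3 a lower value in golden skin (median log2 fold change 0.50). Past the threshold, 0 were higher and 2 lower (background 1.26% and 1.51%). With the replicate block 1 was higher (2.42% of all tested genes) and 2 were lower. Without a filter, 4 of 14 were higher and 3 lower (background 1.49% and 1.70%). The higher ones were the tbx15 row LOC113108532 in both of these fits and, without a filter, the 3 rows of its relative tbx18. The lower ones were engrailed-1 genes, which encode a homeobox factor known from the ventral ectoderm of the mouse limb. LOC113105207 had 32, 25 and 34 counts in golden libraries 1 to 3, against 320, 527 and 521 counts in greenish grey libraries 1 to 3, with a log2 fold change of -3.65 ± 0.39 (SE; edgeR unadjusted p = 5.11e-05, adjusted p = 0.305). LOC113044568 had 15, 7 and 20 counts in golden and 123, 372 and 294 counts in greenish grey libraries (-3.96 ± 0.58, SE). Neither overlapped between the colours. The T-box gene tbx15, which in mouse sets the dorsoventral boundary of agouti expression, had log2 fold changes of 0.48, 1.79 and 1.70 in its 3 rows, none with an unadjusted p under 0.05 in the edgeR fit of the 26421 tested genes. The part of body position in the values of the copies was not tested.

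The tested genes whose levels ran most like each copy over the 6 libraries differed between copies. For LOC113050259 they were LOC113093752 (acid-sensing ion channel 4-B, r = 0.984), LOC113120040 (a dynein light intermediate chain, r = 0.979) and LOC113080166 (a cytochrome c heme lyase, r = 0.974). For LOC113038505 they were LOC113097524 (a V-type proton ATPase subunit, r = 0.997), LOC113095099 (the chromatin factor subunit SSRP1, r = 0.995) and LOC113111353 (purine nucleoside phosphorylase, r = 0.991). LOC113111353 had 48.0 FPKM in greenish grey library 1, against at most 2.63 FPKM elsewhere, and greenish grey library 1 was also the highest for LOC113038505. For LOC113046021 they were LOC113060581 (an integrin-binding protein, r = 0.995), LOC113044464 (the adaptor GAB1, r = 0.994) and LOC113110082 (a leucine-rich repeat protein, r = 0.992). Pearson's r was taken on log2(CPM + 1), and 10, 82 and 133 of 26420 other genes exceeded 0.95 for LOC113050259, LOC113038505 and LOC113046021. The 6 values share library depth and pairing, so r is a description only.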

How the data were processed

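Total RNA of skin was sequenced after SMARTER mRNA library preparation, per the labels. The authors deposited 1 table with raw counts (not normalized) and FPKM values, which scale the counts by gene length and library size. In the deposited FPKM columns 0.0001 stands wherever the count is 0, and it was read as 0. The aligner, counter, use of strand and treatment of multiply matching reads are not given in the sources used here. The submitters' processing notes name the mouse builds GRCm38 and mm10, but the gene rows follow the goldfish annotation ASM336829v1. Groups and replicate numbers came from the titles. For the mRNA libraries nothing says that replicates of a group came from separate fish (the study names its fish for the small RNA libraries only), so p-values measure the spread between these libraries.

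Genes whose mean reached 1 FPKM (26421 of 83088) were tested on counts with edgeR 4.0.16 (quasi-likelihood, TMM, two-sided, R 4.3.3), with Benjamini-Hochberg adjustment over all of them. The SE of an edgeR log2 fold change is its absolute value divided by the square root of the F statistic of the test. It is an approximation, least sure where a group has counts of 0. DESeq2 1.42.0 and limma 3.58.1 on log2(FPKM + 1) and log2(FPKM + 0.1) were alternatives, as were total count scaling, no filter, edgeR's own filter, a muscle covariate, a replicate block and leaving out libraries. Shares of summed FPKM, and of summed counts as an alternative, were compared with exact permutation tests (scipy 1.17.1). The edgeR fit was tested on simulated data. Floors and bounds use 3 counts per library and cover counting error only.

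Replicate numbers were taken to pair the libraries from the data: same-numbered libraries correlated at 0.656, 0.258 and 0.682 in their deviations from the group means, against at most 0.0644 between different numbers. Deviations within a group cancel out for each gene, so positive values for same numbers push the values for different numbers down. The contrast is therefore partly built in and cannot establish a pairing. What a shared number stands for is not in the labels.

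The members, gene lists and tests were chosen with earlier results of these data known. Named were all copies, list genes past a 2-fold change with unadjusted p below 0.05 (of the melanophore list, examples), the highest row of each receptor and cofactor, and the 3 genes most correlated with each copy. The other melanocortin, MITF, adenylate cyclase, T-box and neighbouring genes were named after their values were seen.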

Additional observations from a re-analysis of the deposited data

How the results depend on the processing

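The direction of all 3 copies held under all 15 alternatives. LOC113050259 stayed past 2-fold at an unadjusted p under 0.05 in each of them, from 1.83 (limma, log2(FPKM + 1), a scale that understates low genes) to 7.71, with 6.80 to 7.71 when 1 library was left out. Without greenish grey library 2 all greenish grey counts are 0, and a lower bound of 7.03 stands there in place of the fitted 11.7. LOC113046021 gave -5.24 to -3.10 with 1 library left out. LOC113038505 gave -2.67 to -0.71 with 1 library left out. It passed the threshold without golden library 1 (-2.67), greenish grey library 2 (-2.62) or greenish grey library 3 (-2.60). It did not pass without golden library 2, golden library 3 or greenish grey library 1, nor without both libraries numbered 1. With all libraries, it did not pass with limma on log2(FPKM + 1) (-1.29, limma unadjusted p = 0.0523). It passed with the replicate block (-1.80), total count scaling (-2.32), DESeq2 (-2.18) and no filter (-2.13). It also passed with edgeR's own filter (-2.13), limma on log2(FPKM + 0.1) (-1.83) and the muscle covariate (-2.97). Why it did so was not tested. Genes past the threshold numbered 731, against 1335 with the block, 1642 without a filter, 1254 with edgeR's filter, 2346 with the muscle covariate and 494 to 1422 with 1 library left out. At an adjusted p under 0.05 there were 0, against 1 with the replicate block and 205 with DESeq2. The pairing changed no other call on a copy than that of LOC113038505. The share of LOC113038505 differed by -23.4 points in FPKM and -37.7 points in counts. Of the melanocortin genes 1 of 42 was past the threshold, against 8 of 105 without a filter, 7 of 79 with edgeR's filter and 4 of 42 with the muscle covariate. All of these were lower in golden skin. Over all genes, these fits had 399 of 26421, 874 of 51428, 693 of 40819 and 1493 of 26421 lower past the threshold. The summed melanocortin list was -0.00563 percentage points in counts and 0.000272 in FPKM (exact permutation p = 0.6 and 0.9). The limma fits moved the median of all genes to -0.10 and -0.14, against 0.03 in edgeR. Leaving out libraries in the fit without a filter was added after seeing the data: of its 8 melanocortin genes, 3 held in all 6 such fits (LOC113050985, LOC113053059 and LOC113096094). The 8 genes were picked by that same fit with all libraries, and the share of all genes that held was not taken. The 3 of 8 is therefore a description only. Reads of LOC113050259 are too few in greenish grey skin to give its level there.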

Other observations

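The tbx18 rows, T-box relatives of tbx15, were under the FPKM minimum, and their counts were looked at after their values were seen. LOC113041418 had 242, 30 and 222 counts in golden libraries 1 to 3, against 52, 12 and 27 counts in greenish grey libraries 1 to 3, and the groups overlapped. LOC113065839 had 34, 12 and 26 counts in golden and 0 in each greenish grey library, and LOC113077674 had 49, 13 and 62 counts in golden and 0, 0 and 4 counts in greenish grey libraries. Golden library 2 was the lowest golden library for each of these rows, as it was for LOC113050259 with 191 counts. The share of all genes with this order was not taken, so it is a description only.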
